A study of Drosophila melanogaster with 6 samples.

Results

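The genes *edin*, *IBIN* and *Listericin* encode short peptides of the *Drosophila* immune response, and their transcripts were measured by bulk RNA-Seq in fly heads after a penetrating traumatic brain injury (PTBI). They were found by symbol in the deposited listing as edin, CR44404 (the older name of *IBIN*) and Listericin, and are 3 of the 367 genes in it. The listing itself was selected on the same contrast, since the authors kept only genes that differed by 2-fold or more between PTBI and control heads. The levels and folds of these 3 genes are therefore a description, and no test of the contrast was made. In the injured group of 3 samples, male heads were taken 4 hr after each brain hemisphere had been pierced with a fine needle, and the other 3 samples came from uninjured males of the same age. All flies were young adults collected no later than 6 hr after eclosion, and each sample pooled about 100 to 120 heads. Both groups shared 1 genotype, the offspring of w; UAS-mCD8-GFP;; OK107-GAL4 crossed to yw, so that a GFP reporter under a mushroom body driver was present in injured and uninjured heads alike. The labels call the samples of a group biological replicates.

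Infection and wounding switch on a humoral response in flies, in which the fat body and other tissues secrete antimicrobial peptides (AMPs) and related peptides under the control of the Toll and Imd pathways. *edin* (elevated during infection) encodes a secreted peptide that is induced through the Imd pathway, and larvae need it for a full blood cell response to parasitoid wasps. *IBIN* (induced by infection) was first annotated as a noncoding RNA and is now annotated as a peptide gene. *Listericin* encodes an antibacterial peptide named for its activity against *Listeria*, and its induction has been traced to the receptor PGRP-LE and the JAK/STAT pathway.

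The 3 genes have a like structure in Ensembl release 115 (assembly BDGP6), where each has 1 transcript with 1 exon. *edin* (FBgn0052185) lies on chromosome 3L from 17494880 to 17495300 on the plus strand, with an exon of 421 nt that encodes 115 codons between untranslated regions of 9 and 64 nt. It sits inside an intron of *Oatp74D*, a transporter gene on the same strand that was not listed. *IBIN* (FBgn0265577) lies on chromosome 2R from 17671068 to 17671295 on the plus strand. Its exon of 228 nt, the 3rd shortest among the listed genes found in the annotation, encodes 41 codons between untranslated regions of 32 and 70 nt. *Listericin* (FBgn0033593) lies on chromosome 2R from 11241745 to 11242194 on the minus strand. Its exon of 450 nt encodes 121 codons between untranslated regions of 28 and 56 nt. Transcripts with 1 exon of no more than 450 nt, the length of *Listericin*, were 1.45% of the 13986 annotated protein-coding genes. Among protein-coding genes in the listing, such transcripts belonged to 10 of 236 genes that were higher after PTBI (4.24%) and to 0 of 99 that were lower. Of the 30 genes that were higher by 10-fold or more, 7 were of this kind (23.3%), *edin* and *IBIN* among them. The limits were taken from the 3 genes themselves, which are counted among the 10 of 236.

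Levels are given in RPKM, a read count divided by gene length and by library size, as the authors deposited them. The reads recovered from these values gave PTBI libraries of 24.3 to 35.2 M reads and control libraries of 26.5 to 36.2 M reads. The share of reads that fell on the 357 listed genes with whole recovered reads was 3.17 to 3.82% after PTBI, against 2.10 to 2.35% in controls. Most listed genes were higher after PTBI, so a larger share follows at least in part from the selection. None of 5 neuron markers was among the listed genes, so they gave no value by which to check the head label. The glia markers *wrapper* and *Mdr65* were listed and had reads in all 6 samples.

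All 3 genes were higher in every PTBI sample than in every control sample. *edin* and *IBIN* were about equally raised, by 21.9-fold and 19.1-fold as ratios of the mean RPKM, while *Listericin* was 4.51-fold higher. Of the listed genes, 70.6% were higher after PTBI and 100% showed no overlap between the groups, so neither property sets the 3 genes apart. A difference of 4-fold or more upwards was found in 26.2% of the listed genes, and all 3 genes were among these. A difference of 10-fold or more was found in 8.17%, which included *edin* and *IBIN* but not *Listericin*. In bulk heads, more RNA per cell and more cells of an expressing type cannot be told apart.

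*edin* was at 164, 259.5 and 265 RPKM in PTBI replicates 1, 2 and 3, against 8.53, 6.63 and 16.3 RPKM in control replicates 1, 2 and 3. PTBI replicate 1 was the low one of its group and control replicate 3 the high one, and the groups stayed far apart. The mean was 229.5 ± 56.9 RPKM after PTBI, against 10.5 ± 5.12 RPKM in controls (SD over 3 samples each). The lowest PTBI sample was 10.1-fold above the highest control sample. These levels rest on 2084, 2660 and 3925 reads after PTBI and on 107, 101 and 182 reads in the controls. The highest control count had a 95% Poisson interval of 157 to 210 reads, which covers counting error only. Control replicate 3 thus weighed most on the fold, which was 30.3 without it and 18.5 without control replicate 2.

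*IBIN* was at 460.3, 491 and 453 RPKM in PTBI replicates 1, 2 and 3, against 23.7, 21.7 and 28.1 RPKM in control replicates 1, 2 and 3. The samples of each group lay close together, with a mean of 468 ± 20.2 RPKM after PTBI, against 24.5 ± 3.27 RPKM in controls (SD over 3 samples each). The lowest PTBI sample was 16.1-fold above the highest control sample, a wider gap than that of *edin* although the ratio of means was smaller. The reads behind these values were 3169, 2725 and 3630 after PTBI and 161, 179 and 170 in the controls. Leaving out any 1 sample kept the fold of *IBIN* between 18.1 and 20.6. The fold of *edin* was above that of *IBIN* whichever sample was left out, most narrowly without control replicate 2, at 18.5 for *edin* beside 18.1 for *IBIN*.

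*Listericin* was at 186, 250.1 and 279 RPKM in PTBI replicates 1, 2 and 3, against 30.5, 60.9 and 67.2 RPKM in control replicates 1, 2 and 3. Replicate 1 was the lowest sample in each group, though no label ties replicate numbers across the groups. Mean levels were 238 ± 47.9 RPKM after PTBI, against 52.9 ± 19.6 RPKM in controls (SD over 3 samples each). The lowest PTBI sample was 2.76-fold above the highest control sample, the narrowest gap of the 3 genes. The gene was counted with 2521, 2740 and 4418 reads after PTBI and with 409, 991 and 802 reads in the controls. Its fold ran from 3.72 without control replicate 1 to 5.21 without control replicate 3.

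**Figure D1:**
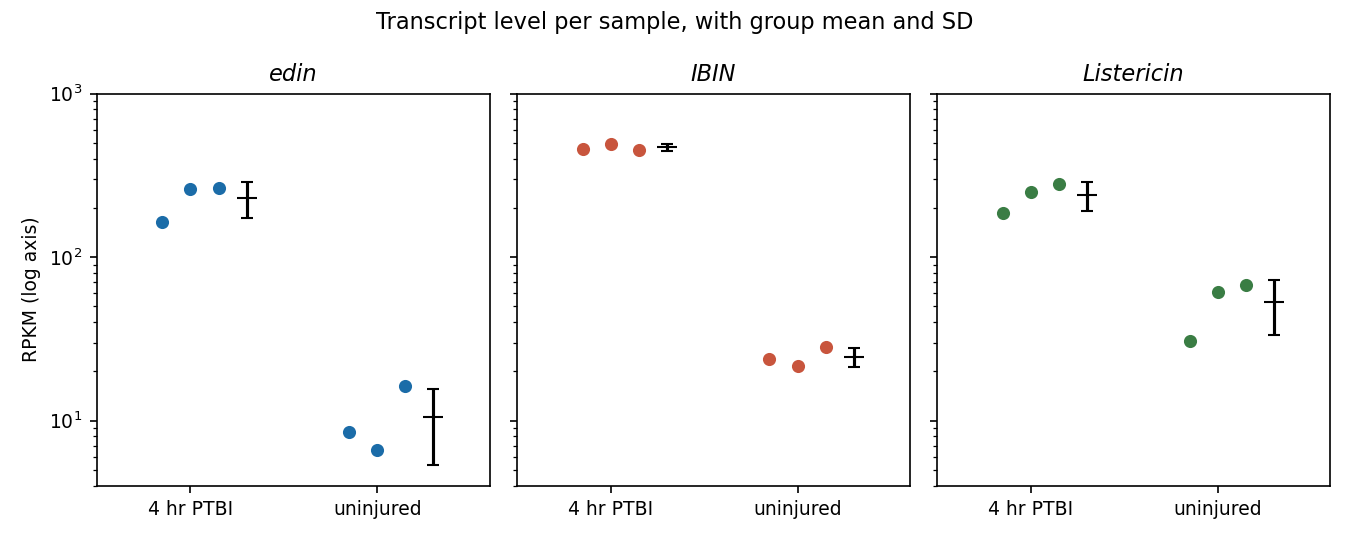
RPKM of *edin*, *IBIN* and *Listericin* on a log axis, with 1 point per sample (3 after PTBI on the left, 3 uninjured on the right) and the group mean and SD as black bars. The PTBI points lie above all control points in each panel, from 164 to 265 against 6.63 to 16.3 RPKM for *edin*, and the points of *IBIN* lie closest together.

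The order of the 3 genes by level differed between the groups. After PTBI, *IBIN* was the most abundant in each sample and did not overlap with the others, whereas *edin* and *Listericin* overlapped and changed places, with *edin* above *Listericin* in replicate 2 only. In each control sample, *Listericin* was above *IBIN* and *IBIN* above *edin*, with no overlap between neighbours in this order. *Listericin* was thus at 0.403, 0.509 and 0.617 of the RPKM of *IBIN* in PTBI replicates 1, 2 and 3, against 1.29, 2.81 and 2.39 in control replicates 1, 2 and 3. The RPKM value takes the whole exon as the length, although a read of 50 bases can start at only 179 positions of *IBIN* and at 401 of *Listericin*. With these positions as the length, a choice made after seeing the data, *IBIN* stayed below *Listericin* in each control sample. The ranges of the controls then overlapped, with 27.7 to 35.8 RPKM for *IBIN* and 34.2 to 75.4 RPKM for *Listericin*. Among all 367 listed genes, *IBIN* was 22nd by mean level after PTBI and 93rd in controls. *Listericin* was 31st after PTBI and 56th in controls, and *edin* was 32nd after PTBI and 146th in controls.

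Together the 3 genes took 310.6 ± 46.1 CPM after PTBI, against 33.8 ± 10.4 CPM in controls (SD over 3 samples each), a ratio of 9.19. CPM is the number of reads over the library total in M reads, with no division by length. The sum was 257, 334 and 340.4 CPM in PTBI replicates 1, 2 and 3, against 22.7, 35.1 and 43.5 CPM in control replicates 1, 2 and 3. After PTBI the reads were shared almost evenly, with 26.8 to 32.8% from *edin*, 30.3 to 40.8% from *IBIN* and 32.4 to 36.9% from *Listericin*. In controls, *Listericin* supplied 60.4 to 78.0% of them, *IBIN* 14.1 to 23.8% and *edin* 7.95 to 15.8%. The shares are of reads and not of levels per length.

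**Figure D2:**
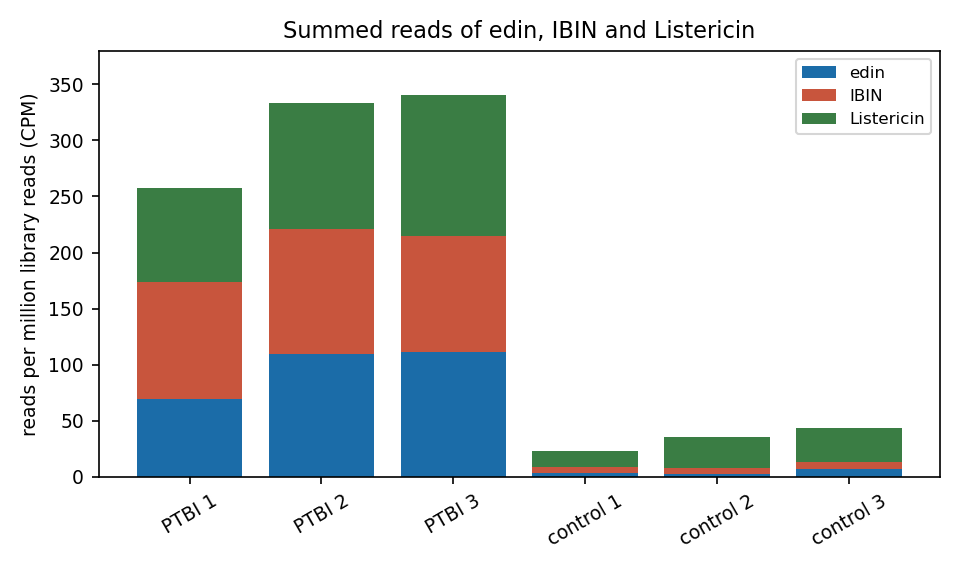
Reads of *edin* (blue), *IBIN* (red) and *Listericin* (green) in CPM, stacked for each of the 3 PTBI samples and the 3 controls. The stacks reach 257 to 340.4 CPM after PTBI and 22.7 to 43.5 CPM in controls, where the green part is the largest.

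The spread between samples of a group was not alike for the 3 genes. *IBIN* had a coefficient of variation (CV, the SD as a share of the mean) of 4.33% after PTBI, the 9th lowest of the 259 genes that were higher, for which the median was 18.6%. The CV after PTBI was 24.8% for *edin* and 20.1% for *Listericin*. In controls the CV was 48.8% for *edin*, 13.3% for *IBIN* and 37.1% for *Listericin*, beside a median of 17.3% over the same genes. Counting of reads alone would give 9.08% for *edin*, 7.68% for *IBIN* and 3.96% for *Listericin* in controls. After PTBI, counting alone would give 1.79 to 1.92%. The control spread of *edin* and *Listericin* was thus far above that of counting, and that of *IBIN* was closer to it.

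PTBI replicate 1 was the lowest PTBI sample for *edin* (71.4% of the group mean) and *Listericin* (77.9%), but not for *IBIN* (98.4%). It was also the lowest for 148 of the 259 higher genes (57.1%). Over the 13 listed canonical AMP genes, the median was 74.9, 117 and 92.7% of the group mean in PTBI replicates 1, 2 and 3. *edin* stood at 71.4, 113 and 115% and *Listericin* at 77.9, 105 and 117% in the same samples, while *IBIN* stayed between 96.7 and 105%.

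The summed level of the listed fat body markers was lower after PTBI. Its order of samples was that of *Listericin* within each group and that of *edin* after PTBI. Among the 259 higher genes, replicate 1 was the lowest sample for 57.1% after PTBI and for 27.8% in controls. Replicate 3 was the highest for 35.9% and 32.4% of them, so neither place is rare in the listing. Of 10 fat body markers, 4 were listed, all as lower after PTBI: the larval storage protein genes *Lsp2*, *Lsp1beta* and *Lsp1alpha*, and the lipoprotein gene *apolpp* (listed as Rfabg, and named here after its values were seen). None of the 4 was at 0 in any sample. Their summed level was 135, 241 and 314 RPKM in PTBI replicates 1, 2 and 3, against 1078, 1237 and 1693 RPKM in control replicates 1, 2 and 3. Most of the sum came from *Lsp2* and *apolpp*, with means of 74.8 and 149 RPKM after PTBI and 884 and 404 RPKM in controls. Replicate 1 was thus lowest and replicate 3 highest in both groups, as for *Listericin*. *Lsp2*, *Lsp1beta* and *apolpp* each had this order in both groups, but *Lsp1alpha* after PTBI did not, with 0.517, 0.203 and 0.477 RPKM in replicates 1, 2 and 3. *edin* did not have it in controls, where replicate 2 was the lowest, and *IBIN* had it in neither group. The part of fat body content in these levels was not tested, and between the groups the markers went the opposite way to the 3 genes. None of 11 haemocyte markers was listed. Of 7 glia markers, *wrapper* and *Mdr65* were listed as lower, with a summed level of 20.9 to 22.8 RPKM after PTBI and 58.9 to 64.8 RPKM in controls. Over all 13986 annotated protein-coding genes, 99 were listed as lower and 236 as higher, so a short list of markers with none listed is the usual case.

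Ordered by fold among the 259 genes that were higher, whose folds ran from 1.93 to 42.8 with a median of 3.13, *edin* was 6th, *IBIN* 9th and *Listericin* 86th. *edin* stood between *CG43175* at 22.2-fold and the AMP gene *DptA* (listed as Dpt) at 20.8-fold. *CG43175* was a much scarcer transcript than *edin*, with 19.0 ± 7.13 RPKM after PTBI, against 0.853 ± 0.170 RPKM in controls (SD, n = 3 each). *IBIN* stood between the AMP gene *Dro* at 19.3-fold and *Ets21C*, a transcription factor gene, at 17.1-fold. *Listericin* stood between 2 scarce transcripts. These were *CG14273* at 4.52-fold, with 0.826 ± 0.136 RPKM after PTBI, against 0.183 ± 0.0915 RPKM in controls, and *CG11159* at 4.39-fold, with 1.84 ± 0.946 RPKM after PTBI, against 0.419 ± 0.121 RPKM in controls (SD over 3 samples each). Among listed genes with a mean RPKM of at least 1, *Listericin* was 57th.

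**Figure D3:**
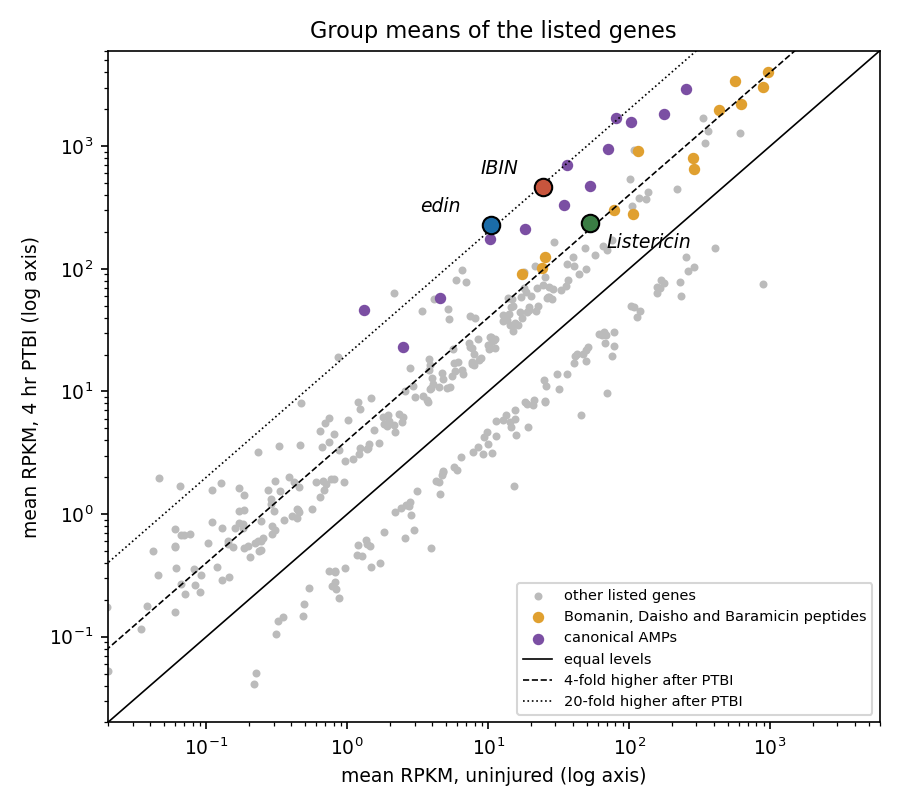
Mean RPKM after PTBI (vertical) against mean RPKM in uninjured controls (horizontal), both on log axes, with 1 point per listed gene; 5 genes under the axes are not drawn. *edin* and *IBIN* lie near the dotted line of 20-fold among the canonical AMPs (purple), and *Listericin* lies near the dashed line of 4-fold among the Bomanin, Daisho and Baramicin peptides (orange).

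The canonical AMP genes and the pathways that control them give the setting of these folds. Of 14 canonical AMP genes, 13 were listed as higher, with a median fold of 12.8 and a range of 9.06 to 35.0. Only *CecB* had a larger fold than *edin*, and only *CecB*, *DptA* and *Dro* had a larger fold than *IBIN*, whereas all 13 were above *Listericin*. Of 18 Bomanin, Daisho and Baramicin peptide genes, most of them known as Toll targets, 13 were listed as higher, with a median fold of 4.19 and a range of 2.26 to 7.89. *Listericin* fell within this range, with 5 of the 13 above it, led by *BomBc1*, *BomS1* and *BomT1*. *edin* and *IBIN* were above all 13.

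No gene on the 3 signalling lists was lower in the listing, and those that were higher follow, where 236 of the 13986 annotated protein-coding genes were listed as higher. Of 25 Imd pathway genes, 3 were listed as higher, namely *PGRP-SC2* at 29.96-fold, *PGRP-SB1* at 5.34-fold and *pirk* at 2.97-fold. *PGRP-SC2*, which encodes a peptidoglycan amidase that restrains the pathway, was the only one above *edin* and *IBIN*. *PGRP-LE*, the receptor to which *Listericin* induction has been traced, was not listed. Of 23 Toll pathway genes, 4 were listed as higher with a median fold of 3.01, and *PGRP-SA* at 11.2-fold was the only one above *Listericin*. The JAK/STAT list held 15 pathway members and targets, of which 7 were listed as higher with a median fold of 3.20. It did not hold *regucalcin*, *nkt* (listed as CG14141) and *Nop56*, which the paper names among raised components of this pathway. In the listing *Nop56* was higher, at 2.40-fold, but *regucalcin* and *nkt* were lower, at 0.419 and 0.360 of the control mean. The cytokine genes *upd3* and *upd2* at 42.8-fold and 26.1-fold and the thioester protein gene *Tep1* at 5.88-fold were above *Listericin*. The median over all genes listed as higher, 3.13, is close to those of the Toll and JAK/STAT lists.

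The genes most like each of the 3 were sought by the root mean square difference of their profiles over the 6 samples. A profile is log2(RPKM + 1) minus the mean of the controls. For *edin* the nearest were *DptA* (0.16), *PGRP-SC2* (0.21) and *Dro* (0.29), and *IBIN* was next (0.35). *DptA*, an Imd-controlled AMP gene, was at 1390.2, 1982 and 1691 RPKM in PTBI replicates 1, 2 and 3, against 77.9, 54.4 and 111 RPKM in control replicates 1, 2 and 3. Its control samples fell in the same order as those of *edin*, with replicate 2 lowest and replicate 3 highest. *PGRP-SC2* was at 41.2, 69.5 and 80.8 RPKM in the PTBI samples and 1.93, 1.63 and 2.83 RPKM in the controls, the same order as *edin* in both groups. Both genes were picked for nearness to *edin* over these same 6 samples, so a shared order follows in part from the choice.

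For *IBIN* the nearest were *Dro* (0.19), *DptA* (0.27) and *DptB* (0.27), all of them AMP genes. *Dro* was at 623, 711 and 761 RPKM in PTBI replicates 1, 2 and 3 and at 40.6, 25.5 and 42.7 RPKM in control replicates 1, 2 and 3. *Listericin* was far from both, at 1.59 from *edin* and 1.46 from *IBIN*. Its nearest genes were *BaraA1* (listed as CG33470, 0.32), *IMPPP* (0.33) and *BomBc3* (listed as CG5791, 0.35), and none of them was among its 3 nearest by Pearson's r or with log2(RPKM + 0.1). *BaraA1*, a Baramicin gene, was at 103, 116 and 159 RPKM in PTBI replicates 1, 2 and 3 and at 22.6, 29.4 and 23.8 RPKM in control replicates 1, 2 and 3. Control replicate 1 of *Listericin* lay below all of these profiles. Pearson's r over the 6 samples was 0.998 between *edin* and *DptA*, 0.996 between *IBIN* and *Dro* and 0.963 between *Listericin* and *BaraA1*. Such values describe the shared difference between the groups, by which all these genes were listed. Near-identical gene copies may share reads, so the split among Baramicin copies is uncertain.

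**Figure D4:**
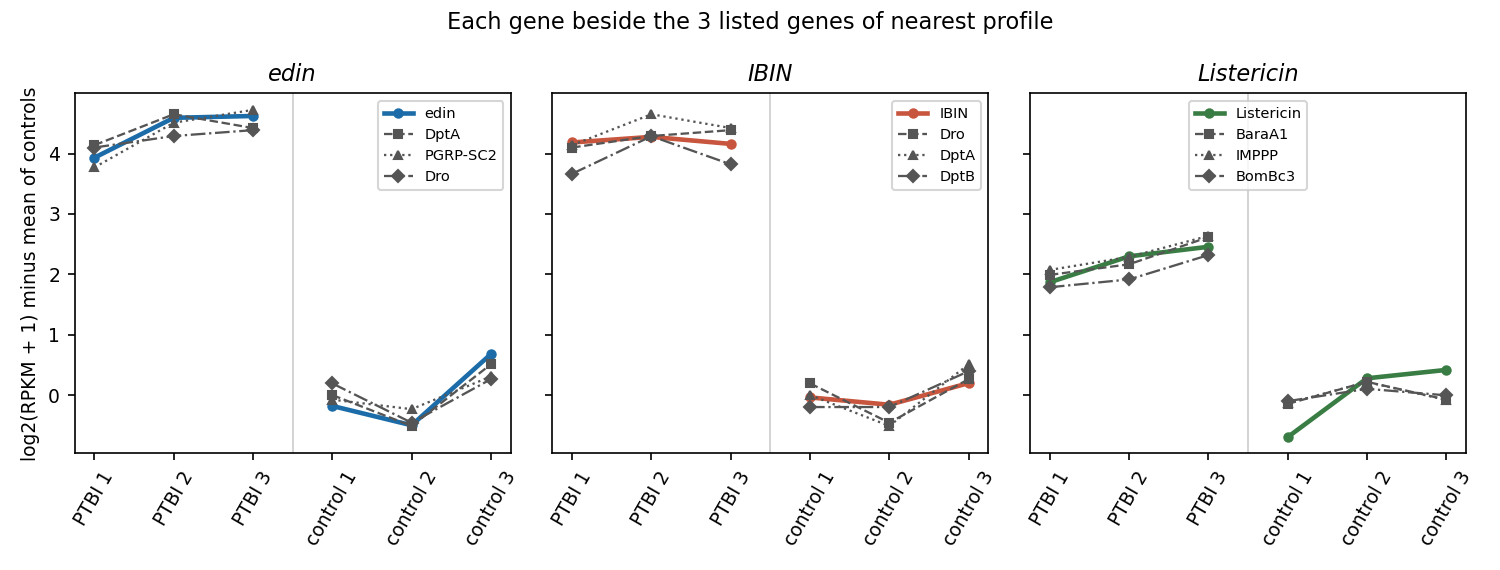
Profiles of *edin*, *IBIN* and *Listericin* (coloured) and of the 3 nearest listed genes each (grey), as log2(RPKM + 1) minus the mean of the 3 controls, for the PTBI samples on the left of each panel and the controls on the right. *Listericin* and its neighbours reach about the same height after PTBI, but control replicate 1 of *Listericin* lies below the others; lines join samples only to make a gene easy to follow.

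In the genome, *Listericin* alone had a listed gene among the 10 annotated genes on either side. Of its 20 neighbours 18 were protein-coding and 2 were listed, where 236 of the 13986 annotated protein-coding genes were listed as higher. A shared response of the neighbouring genes was not tested. *CG13215* lies 1630 bp downstream of *Listericin* on the same strand, and *CG13218* lies 8030 bp downstream, also on the same strand. Both were scarce. *CG13215* had 9, 15 and 12 reads in PTBI replicates 1, 2 and 3 and 2, 2 and 0 reads in control replicates 1, 2 and 3. *CG13218* had 17, 5 and 15 reads in the PTBI samples and 2, 1 and 0 reads in the controls. In CPM, the totals of the groups gave a ratio of 9.28 for *CG13215* (95% exact binomial interval of 3.33 to 35.9) and of 12.7 for *CG13218* (4.03 to 64.5), for counting error only. Both intervals are too wide to place these ratios against the 4.51-fold of *Listericin* with any precision. None of the 20 genes around *edin* and none of the 20 around *IBIN* was listed. The closest gene to *IBIN*, *P32*, ends 13 bp from it on the opposite strand. The kit kept strand. Whether the counting used it is not stated in the methods. The annotated exons of *IBIN* and *P32* do not overlap, so this bears only on reads that run past an annotated end. *edin* lies inside an intron of *Oatp74D* on the same strand, where strand cannot separate reads of unspliced *Oatp74D* RNA from those of *edin*. The number of such reads was not tested.

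**Figure D5:**
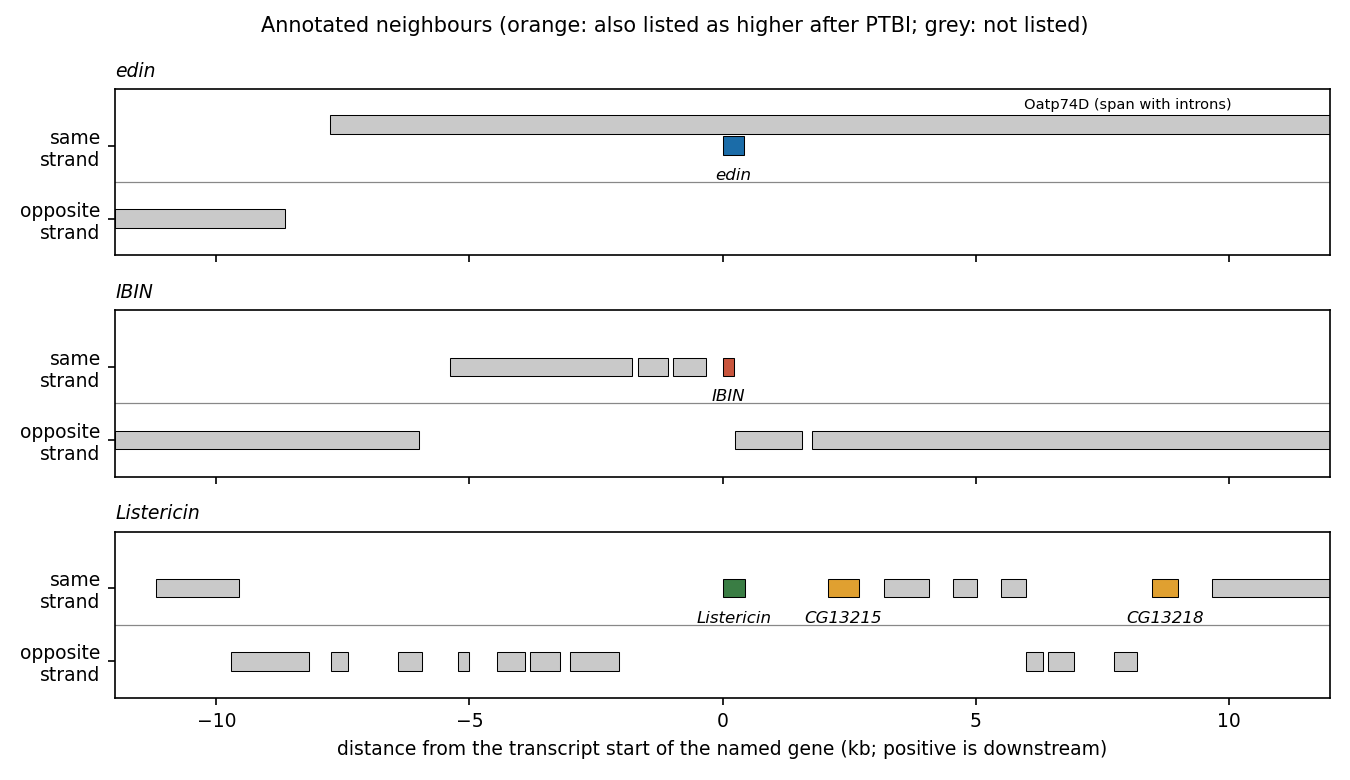
Annotated genes within 12 kb of the transcript start of *edin*, *IBIN* and *Listericin*, drawn to scale in kb with the strand of the named gene on top. Orange boxes are genes also listed as higher after PTBI, of which there are 2, both downstream of *Listericin*, and grey boxes were not listed.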

How the data were processed

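Bulk RNA-Seq values of 3 PTBI and 3 uninjured head samples were used. Per the labels and the paper's methods, strand-specific mRNA libraries were sequenced as single-end 50 bp reads, mapped with Subjunc of the Subread package to a FlyBase genome (release not given in the methods), counted per gene and tested with voom and limma. The authors deposited RPKM for 367 genes only, those past their limits of 2-fold and of 0.05 for the adjusted p. Further columns hold the results of their own comparison (mean expression, log2 fold change, raw and adjusted p), which were not used. No column of other samples was present.

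Samples were grouped by their titles, and columns were matched to samples by library letter. Of the 367 identifiers, 360 were found in Ensembl release 115 (BDGP6). Its exon lengths turned the RPKM of 357 genes into whole reads in all 6 samples (within 0.02 reads), which gave depth and counting error; the recovery returned all of 360 genes in simulated data for this comparison. Because the genes were listed for the contrast described, no test was run.

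The named genes followed a rule: the 3 members, the 3 nearest profiles of each, the genes next above and below in fold, listed genes among 10 neighbours on either side, and up to 3 genes from each of 9 lists. *regucalcin*, *nkt* and *Nop56* were named outside this rule, because the paper places them in the JAK/STAT pathway. *Rel*, *PGRP-LC* and *Spn88Ea* were also named outside it, because the paper measured them by quantitative PCR. The members and lists were chosen with earlier results of these data known. Alternatives were group medians, geometric means, pseudocounts of 1 and 0.1, scaling to sample medians, a filter on low values and each sample left out. Promoter and protein sequences were not used here. Scripts ran in Python 3.11.15 with pandas 2.3.3, numpy 2.4.6 and scipy 1.17.1, and figures were drawn with matplotlib 3.10.9.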

Additional observations from a re-analysis of the deposited data

How the results depend on the processing

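The 3 genes stayed higher after PTBI under every alternative run. For medians, geometric means and left-out samples this was fixed in advance, since the groups did not overlap in any of the 367 listed genes. Only the scaling to sample medians could have come out otherwise. With each sample divided by its median over the listed genes, the fold was 11.2 for *IBIN*, 12.5 for *edin* and 2.66 for *Listericin*. This scaling takes out part of the change, because most listed genes were higher after PTBI. With a ratio of medians the fold of *edin* was 30.4. Leaving out 1 sample at a time gave folds of 18.5 to 30.3 for *edin*, 18.1 to 20.6 for *IBIN* and 3.72 to 5.21 for *Listericin*, and places in the order of folds of 4 to 10, 8 to 11 and 72 to 102. With geometric means of RPKM + 1, *edin* was 3rd and *Listericin* 36th, and among genes with a mean RPKM of at least 1 *Listericin* was 57th, since scarce genes then fall in the order or leave it. By Pearson's r, the nearest genes shared 1 of 3 with those given for *edin*, 1 of 3 for *IBIN* and 0 of 3 for *Listericin*. With log2(RPKM + 0.1) they shared 3, 2 and 0 of 3, so the neighbours named for *Listericin* depend on the measure. Of 65 values under alternatives, 56 moved by less than the replicate spread or, for places and counts, by no more than 1.5 times. This count says little about how stable the folds are. Leaving out 1 of 3 samples moves a group mean by less than its SD. The folds without 1 sample were therefore nearly bound to count as unmoved. The replicate spread was so wide for *edin* that folds of 12.5, 30.3 and 30.4 all counted as unmoved. No paired analysis was possible because no value comes from a test, and the groups share replicate numbers that no label ties to a common batch or day. Depth limits *edin* and *IBIN* most in controls, where they had 101 to 182 and 161 to 179 reads, and values of genes outside the listing were not analysed here.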
